A study of Homo sapiens with 6 samples.

Results

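AP-1 is a family of paired transcription factors, and the genes described here are 10 members of it and its neighbours: JUN, JUNB, JUND, FOS, FOSB, FOSL1, FOSL2, ATF3, MAFF and EGR1. They were followed in HCT116 cells, a line established from a human colorectal carcinoma, after siRNA silencing of RRN3, the initiation factor that RNA polymerase I needs to start on ribosomal RNA genes. The members were taken by gene symbol, and all 10 were found among the 25662 symbols of the deposited table. The siRRN3 group holds 3 libraries of cells transfected with siRNA against RRN3, and the control group holds 3 libraries of cells transfected with a control siRNA. Both groups were grown in serum-containing McCoy's medium, and neither the time after transfection nor the number of siRNA sequences is stated in the labels used here. HCT116 is a single line, so the 3 replicates of a group measure the spread between transfected cultures of that line. Values are TPM, a length-scaled share of the transcripts of a library, so levels of different genes can be set side by side, but the sequencing depth of a library is unknown.

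JUN proteins pair with each other or with FOS proteins through leucine zippers and bind DNA as dimers, whereas FOS proteins need a JUN partner. ATF3 and the small MAF protein MAFF are relatives with the same kind of zipper, and EGR1 is a zinc finger factor. Most of these genes are immediate early genes, transcribed within minutes of a growth factor or stress signal from factors already present in the cell. FOSL1, also called FRA1, is known for high expression in epithelial tumour cells with active growth factor signalling through ERK.

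Promoter sequences are shown because short elements known to respond to such signals are found before both rising and falling members, though not before all of them. Sequences are those of RefSeq on GRCh38.p14, which gave 11 promoter windows for 9 members, all but FOSL1, with 250 bases searched before each transcription start on both strands. The lines below each give 30 bases 5′ to 3′ on the strand of the gene. Capitals mark the core of the cAMP response element, TGACGT, its full palindrome TGACGTCA, or the variant octamer TGACATCA known from the JUN promoter.
JUN, chr1:58784096-58784125, minus strand: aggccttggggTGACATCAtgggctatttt
ATF3, chr1:212565273-212565302, plus strand: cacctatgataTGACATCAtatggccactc
FOSL2, chr2:28392780-28392809, plus strand: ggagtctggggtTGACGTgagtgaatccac
FOS, chr14:75278752-75278781, plus strand: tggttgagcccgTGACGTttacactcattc
FOSB, chr19:45467924-45467953, plus strand: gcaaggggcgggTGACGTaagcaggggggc
MAFF, chr22:38201929-38201958, plus strand: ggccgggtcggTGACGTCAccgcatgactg

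For EGR1 and JUND, the 150 bases before the start are given. In the EGR1 line capitals also mark 2 serum response elements, the site of the factor SRF, and capital ACGTCA is the core element read on the other strand.
EGR1, chr5:138465329-138465478, plus strand: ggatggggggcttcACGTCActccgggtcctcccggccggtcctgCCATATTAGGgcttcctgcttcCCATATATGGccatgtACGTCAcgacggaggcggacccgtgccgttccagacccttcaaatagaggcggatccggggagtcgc
JUND, chr19:18281623-18281772, minus strand: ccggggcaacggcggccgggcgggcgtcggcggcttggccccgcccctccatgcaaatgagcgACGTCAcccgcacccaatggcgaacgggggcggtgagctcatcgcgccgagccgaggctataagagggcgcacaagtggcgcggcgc

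TGACGT or TGACATCA was found in 8 of the 11 windows of the members, against 9.36% of all 35116 windows in the table. These 8 windows belong to 8 of the 9 members with a window, JUNB being the one without a match. TGACGT alone was in 7.1% of all windows, TGACATCA in 2.37% and the full palindrome TGACGTCA, which contains TGACGT on both strands, in 1.65%. The palindrome was found in the windows of MAFF and JUND, in JUND upstream of the bases printed. The serum response element was found in 1.16% of all windows and, among the members, in that of EGR1. The AP-1 site TGANTCA, in 6.57% of all windows, and the EGR1 site GCGGGGGCG, in 4.72%, were in no member's window. The motifs were chosen after the sequences had been seen, and a match describes letters, not a bound site. The octamer TGACATCA was in the windows of JUN and ATF3, which rose. TGACGT was in those of FOSL2 and MAFF, which rose, and of FOS and JUND, which fell. It was also in those of FOSB and EGR1, which did not pass the test described below, and JUNB, without a match, fell. A part of these elements in the changes was not tested.

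**Figure D1:**
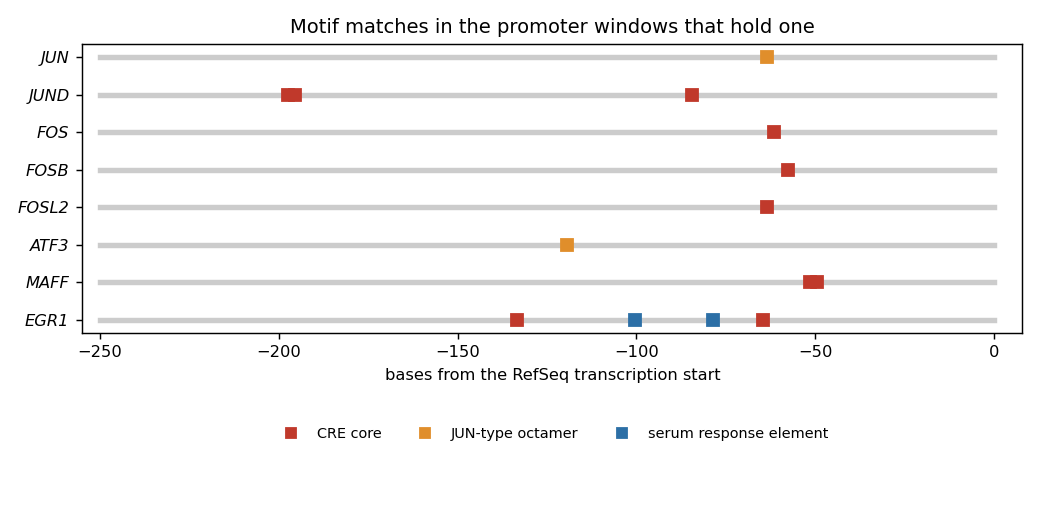
Positions of motif matches in the 250 bases before the RefSeq transcription start of the 8 members whose window holds one. The x axis gives bases from the start, squares mark the centre of a match, and paired squares are the palindrome read on both strands. Matches to the core element or the octamer lie between positions -136 and -47 in every row, except for the palindrome of JUND, which is farther upstream.

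RRN3 had 2.70, 1.22 and 0.925 TPM in siRRN3 libraries, against 20.9, 14.7 and 14.1 TPM in control libraries. The groups did not overlap (log2 change -2.79, SE 0.27, limma adjusted p = 0.000301), and an exact two-sided permutation test gave p = 0.1, which is the minimum for 3 against 3. Of 12157 genes with a mean of at least 1 TPM, 30.3% passed the limma test at an adjusted p of 0.05, 11.2% upward and 19% downward. Of the calls, 37.2% were upward, against 50.2% after median-of-ratios scaling, 48.9% after quantile normalization and 51.2% with library-wise GC trends removed. Mitochondrial transcripts held 26.8% to 29.3% of the TPM in siRRN3 libraries and 23.3% to 25.7% in control libraries. Of 9 markers of colorectal epithelium, EPCAM, CDH1, CDX2 and the keratin genes KRT8, KRT18 and KRT19 exceeded a mean of 1 TPM, while KRT20, CDH17 and VIL1 did not. Of these 6, 3 rose and 0 fell, and the 9 summed to 12358 to 13511 TPM in siRRN3 libraries and 5435 to 6491 TPM in control libraries. Those that rose were KRT8, KRT18 and KRT19, with log2 changes of 1.20, 1.19 and 1.01 (limma adjusted p = 0.000134, 8.83e-05 and 0.000156). Of 12 immune, fibroblast and endothelial markers, 10 were below a mean of 1 TPM, and CD3E and COL1A2 were listed at 0 in every library. The 12 summed to 8.67 to 9.45 TPM in siRRN3 libraries and 17.0 to 21.1 TPM in control libraries. CD68, a lysosomal protein used as a macrophage marker, fell to 0.737 ± 0.154 TPM in siRRN3 libraries, against 8.29 ± 0.880 TPM in control libraries (log2 change -2.42, limma adjusted p = 5.37e-05). The other tested, COL1A1, had 7.17 ± 0.419 TPM in siRRN3 and 9.30 ± 1.03 TPM in control libraries and did not pass (adjusted p = 0.102). The part of the epithelial and other markers in the results below was not tested.

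After RRN3 silencing the family changed in both directions. JUN, FOSL1, FOSL2, ATF3 and MAFF rose, JUNB, JUND and FOS fell, and FOSB and EGR1 did not pass the test. All 10 members were tested, and 8 passed, beside the 30.3% of all genes tested. The groups did not overlap for 9 of the 10 members, beside 44.8% of all genes tested. The median log2 change of the members was 0.32, and that of all genes tested was -0.05. The members were chosen with results of these libraries known, so these counts describe them and do not compare them with other genes. In bulk libraries a change in the RNA of each cell and a change in the share of cells carrying it cannot be told apart.

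**Figure D2:**
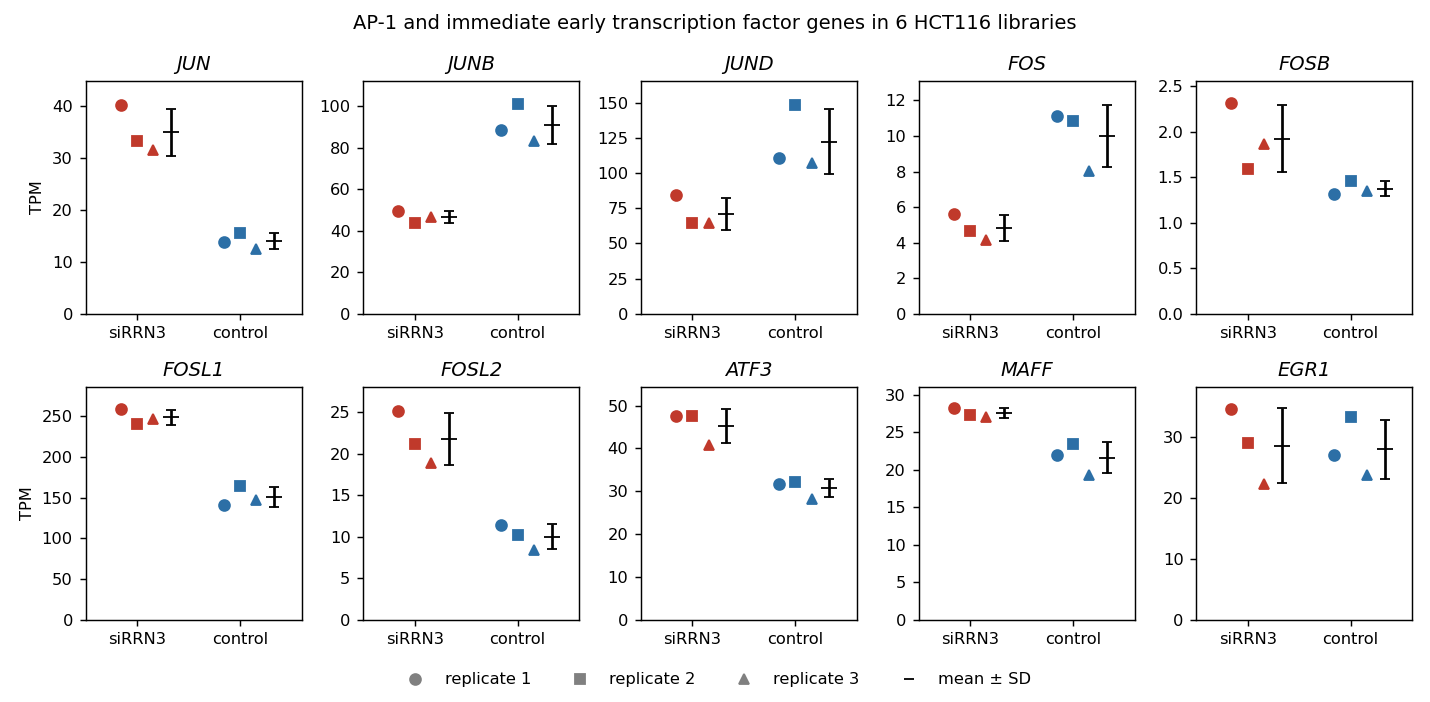
TPM of each of the 10 genes in the 3 siRRN3 and the 3 control libraries, on linear axes that start at 0. Marker shapes give the replicate, and the bar beside each group is the mean ± SD of its 3 libraries. JUN, FOSL1, FOSL2, ATF3, MAFF and FOSB lie higher in every siRRN3 library, JUNB, JUND and FOS lower, and EGR1 overlaps.

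JUN, the founding partner of the family, more than doubled. It had 40.1, 33.3 and 31.5 TPM in siRRN3 libraries, against 13.9, 15.5 and 12.5 TPM in control libraries. The groups were far apart, with every siRRN3 library above every control library. The means were 35.0 ± 4.54 and 14.0 ± 1.503 TPM (SD, n = 3 each), a ratio of 2.50, with a log2 change of 1.26 (SE 0.13, limma adjusted p = 0.000397). By size of rise on this scale it ranked 166 among the 12157 genes tested. JUN (ENSG00000177606) is a gene of 1 exon, read from the minus strand of chromosome 1 between 58780788 and 58784327 in GRCh38.

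JUNB and JUND, partners that activate many AP-1 sites less strongly than JUN, moved the other way. JUNB had 49.5, 43.6 and 46.5 TPM in siRRN3 libraries, against 88.3, 101 and 83.4 TPM in control libraries. Its mean was 51.2% of the control mean (46.5 ± 2.94 against 90.9 ± 9.08 TPM, log2 change -0.95, SE 0.10, limma adjusted p = 0.000403). JUND had 84.2, 64.9 and 64.5 TPM in siRRN3 libraries, against 111, 149 and 107 TPM in control libraries. The spread was wider than for JUNB, with siRRN3 replicate 1 and control replicate 2 above the others of their groups, and the groups still did not overlap. JUND averaged 71.2 ± 11.3 TPM in siRRN3 and 122 ± 23.2 TPM in control libraries (log2 change -0.77, SE 0.15, limma adjusted p = 0.00771).

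Both genes lie on chromosome 19 and have 1 exon, JUNB (ENSG00000171223) at 12791496 to 12793315 on the plus strand and JUND (ENSG00000130522) at 18279760 to 18281622 on the minus strand. Their longest transcripts have a GC content of 64.9% and 69.7%, against a mean of 50.3% over the genes tested with a value. With library-wise GC trends removed, the log2 change of JUND was -0.45 (adjusted p = 0.0159) and that of JUNB -0.75 (adjusted p = 0.000105). JUNB shares 259 exon bases with HOOK2 on the opposite strand. No source used here says that strand was used in counting. HOOK2 had 29.01 ± 2.86 TPM in siRRN3 and 27.9 ± 3.68 TPM in control libraries and did not pass the test (adjusted p = 0.782).

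The balance within the JUN family moved toward JUN while the family's sum became smaller. JUN, JUNB and JUND together came to 153 ± 18.3 TPM in siRRN3 and 227 ± 33.5 TPM in control libraries, with ranges of 142 to 174 and 203 to 266 TPM. JUN held 22.9% ± 0.705 of that sum in siRRN3 libraries, against 6.18% ± 0.334 in control libraries. The share of JUNB was 30.6% ± 2.10 in siRRN3 and 40.2% ± 1.87 in control libraries, and that of JUND was 46.5% ± 1.73 and 53.7% ± 2.17 in the same order. The ratio of JUN to JUNB within a library is unchanged when all its values are scaled by the same factor. Quantile normalization or removal of GC trends can alter this ratio. In the TPM values it was 0.812, 0.764 and 0.678 in siRRN3 libraries, against 0.157, 0.154 and 0.150 in control libraries. The ratio of JUNB to JUND was 0.587, 0.672 and 0.722 in siRRN3 libraries and 0.796, 0.678 and 0.778 in control libraries, and these ranges overlap.

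**Figure D3:**
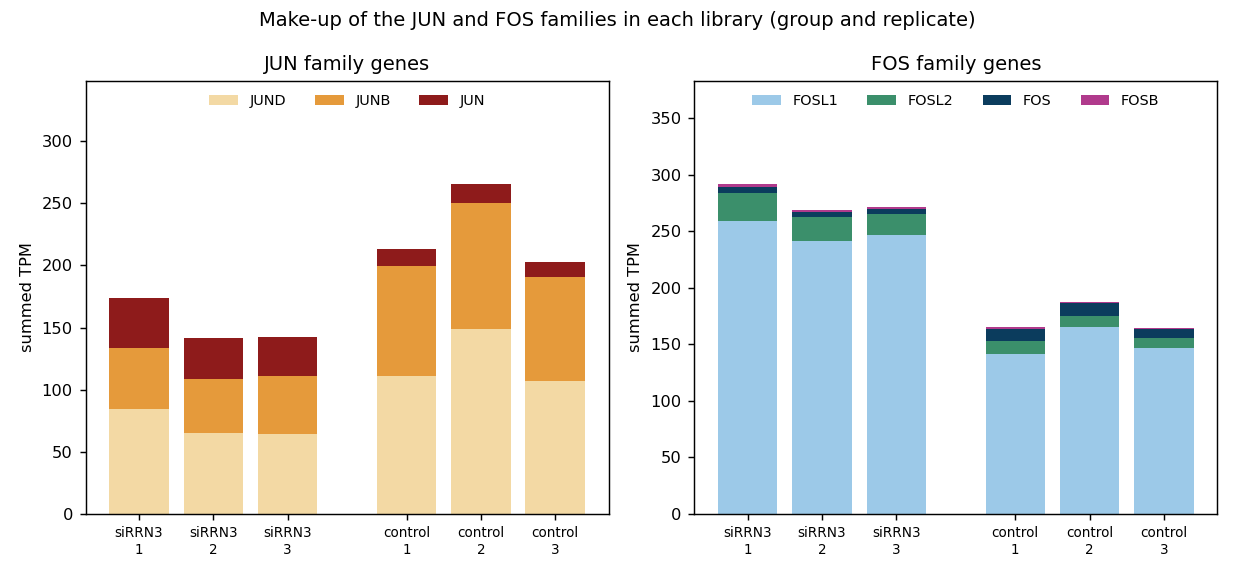
Stacked TPM of the JUN family (left) and the FOS family (right) in each library, labelled by group and replicate, with bars that start at 0. The JUN segment is larger in the 3 siRRN3 libraries although the stacks are lower, and the FOS family stack is higher in siRRN3 libraries, most of it FOSL1.

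Among the FOS family genes, FOS itself fell while the related FOSL1 and FOSL2 rose. FOS, the founding partner of JUN, had 5.59, 4.65 and 4.16 TPM in siRRN3 libraries, against 11.1, 10.9 and 8.01 TPM in control libraries. Its mean was 48.0% of the control mean (4.80 ± 0.729 against 10.0 ± 1.74 TPM, log2 change -0.92, SE 0.17, limma adjusted p = 0.00568). The groups did not overlap, and control replicate 3 was the lowest of its group. FOS (ENSG00000170345) is read from the plus strand of chromosome 14, between 75278774 and 75282230.

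FOSL1, which lacks the strong activation domain of FOS, was the most abundant member in both groups. It had 259, 241 and 246 TPM in siRRN3 libraries, against 141, 165 and 147 TPM in control libraries. All 3 siRRN3 libraries were above the control libraries, and the spread within each group was small beside the gap. The means of 249 ± 9.04 and 151 ± 12.4 TPM gave a ratio of 1.65 (log2 change 0.72, SE 0.08, limma adjusted p = 0.000567). By mean TPM over the 6 libraries it stood above 95.5% of the genes tested. FOSL1 (ENSG00000175592) is read from the minus strand of chromosome 11, between 65892049 and 65900573.

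FOSL2, also called FRA2, had 25.1, 21.2 and 18.9 TPM in siRRN3 libraries, against 11.4, 10.3 and 8.37 TPM in control libraries. Its means were 21.8 ± 3.14 TPM in siRRN3 and 10.0 ± 1.52 TPM in control libraries, a ratio of 2.18 (log2 change 1.05, SE 0.15, limma adjusted p = 0.00183). FOS and FOSL2 were at nearly the same level in control libraries and apart in siRRN3 libraries. The ratio of FOSL2 to FOS was 4.49, 4.57 and 4.55 in siRRN3 libraries, against 1.02, 0.944 and 1.05 in control libraries. The ratio of FOSL1 to FOS was 46.3, 51.9 and 59.3 in siRRN3 libraries, against 12.7, 15.2 and 18.4 in control libraries. FOSL2 (ENSG00000075426) is read from the plus strand of chromosome 2, between 28392448 and 28417312.

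FOSB, the FOS relative best known from neurons, was the least abundant member. It had 2.31, 1.58 and 1.86 TPM in siRRN3 libraries, against 1.31, 1.46 and 1.35 TPM in control libraries. The groups did not overlap, yet the test was not passed (log2 change 0.29, 95% interval -0.08 to 0.66, limma adjusted p = 0.211). With the GC trend removed FOSB passed upward (log2 change 0.42, adjusted p = 0.0252). The FOSB gene lies wholly inside the span of ERCC1, a DNA repair gene on the opposite strand with which it shares no exon base. ERCC1 rose, with 104 ± 6.02 TPM in siRRN3 and 58.1 ± 2.49 TPM in control libraries (adjusted p = 0.000301), and its part in the FOSB values was not tested.

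Summed over FOS, FOSB, FOSL1 and FOSL2, the family came to 277 ± 12.7 TPM in siRRN3 and 172 ± 13.1 TPM in control libraries, without overlap. FOSL1 held 89.7% ± 1.06 of that sum in siRRN3 and 87.6% ± 1.85 in control libraries, and these shares overlap between the groups. The share of FOS was 1.73% ± 0.192 in siRRN3 and 5.80% ± 0.940 in control libraries. The share of FOSL2 was 7.83% ± 0.822 in siRRN3 and 5.81% ± 0.948 in control libraries.

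The stress-induced factor ATF3, which represses or activates its targets depending on its partner, rose 1.47-fold. It had 47.5, 47.6 and 40.7 TPM in siRRN3 libraries, against 31.7, 32.2 and 28.2 TPM in control libraries. Replicate 3 was the lowest in either group, and the groups did not overlap (log2 change 0.54, SE 0.10, limma adjusted p = 0.00586). ATF3 (ENSG00000162772) lies on the plus strand of chromosome 1, at 212565334 to 212620777.

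MAFF, a small MAF protein without an activation domain of its own, had 28.3, 27.3 and 27.1 TPM in siRRN3 libraries, against 21.99, 23.5 and 19.4 TPM in control libraries. The siRRN3 libraries lay close together, and all were above the control libraries. The rise of 1.27-fold was close to the threshold (log2 change 0.34, SE 0.10, limma adjusted p = 0.0418). The MAFF call ended in every fit that left out siRRN3 replicate 1, 2 or 3 (adjusted p = 0.0747, 0.136 and 0.0912) or control replicate 1 or 3 (adjusted p = 0.0811 and 0.113). It also ended without both libraries numbered 1 (adjusted p = 0.063), with low genes kept in (adjusted p = 0.0547) and with no variance trend fitted (adjusted p = 0.0551). MAFF (ENSG00000185022) lies on the plus strand of chromosome 22, at 38200767 to 38216511, and shares no exon base with PLA2G6 on the opposite strand.

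EGR1, the early growth response factor and a standard readout of ERK and SRF activity, did not pass the test. It had 34.6, 29.03 and 22.3 TPM in siRRN3 libraries, against 27.2, 33.3 and 23.8 TPM in control libraries. The highest and the lowest of the 6 values were both in siRRN3 libraries. The means of 28.6 ± 6.17 and 28.1 ± 4.84 TPM differed by a log2 change of 0.02, with a 95% interval of -0.40 to 0.44 (limma adjusted p = 0.954). EGR1 (ENSG00000120738) lies on the plus strand of chromosome 5, at 138465490 to 138469315.

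**Figure D4:**
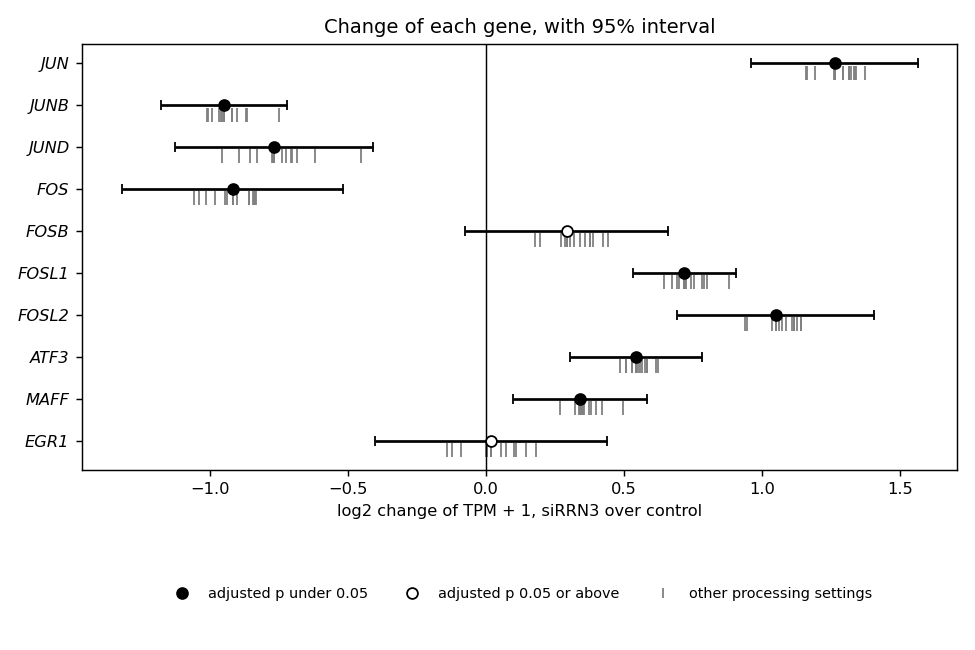
Log2 change of TPM + 1, siRRN3 over control, for each gene with its 95% interval from limma. Filled circles passed an adjusted p of 0.05 and open circles did not, and grey ticks are the values under the other processing settings. The intervals of JUN, FOSL1, FOSL2, ATF3 and MAFF lie above 0, those of JUNB, JUND and FOS below it, and those of FOSB and EGR1 include it.

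The order of the members by level changed with the group. In siRRN3 libraries it ran FOSL1, JUND, JUNB, ATF3, JUN, EGR1, MAFF, FOSL2, FOS and FOSB. In that order the libraries of JUNB and ATF3, of JUN and EGR1, and of EGR1 and MAFF overlapped. In control libraries it ran FOSL1, JUND, JUNB, ATF3, EGR1, MAFF, JUN, FOS, FOSL2 and FOSB, where FOSL1 and JUND, ATF3 and EGR1, and FOS and FOSL2 overlapped. Within a group the members tended to be high or low in the same library. The highest value of 9 of 10 members among siRRN3 libraries was in replicate 1, and the lowest value of 8 of 10 among control libraries was in replicate 3. This holds for members that rose and for members that fell.

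The members were read beside lists of related genes, also chosen with earlier results of these data known, so counts over a list are descriptive. The first list holds other genes with the same kind of zipper, and only some of their proteins are known to pair with JUN, FOS or MAF proteins. Of 20 such genes tested among 24 in the table, 1 rose, 5 fell and 14 did not pass. Of all genes tested, 11.2% rose and 19% fell, so the share of the list that passed was close to that of all genes. Their median log2 change was 0.03, beside -0.05 for all genes. JDP2, a repressor that pairs with JUN, fell to 8.50 ± 0.428 TPM in siRRN3 libraries, against 17.6 ± 3.20 TPM in control libraries (adjusted p = 0.00224). ATF4, the effector of the integrated stress response, fell to 246 ± 4.21 TPM in siRRN3 libraries, against 363 ± 28.5 TPM in control libraries. Its target DDIT3, also called CHOP, fell to 6.73 ± 0.678 TPM in siRRN3 libraries, against 14.2 ± 2.46 TPM in control libraries. MAFA and ATF5, the last named after its values were seen, also fell (log2 changes -0.75 and -0.47). Without siRRN3 replicate 2 the number that fell was 3, and the MAFA call ended (adjusted p = 0.0615).

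The zipper gene of this list that rose was ATF6, a membrane-bound sensor of unfolded protein. It had 22.7 ± 3.67 TPM in siRRN3 and 15.9 ± 1.64 TPM in control libraries (limma adjusted p = 0.0363). The ATF6 call ended with low genes kept in (adjusted p = 0.0676), without siRRN3 replicate 1 or 2 (adjusted p = 0.0643 and 0.095) and without control replicate 2 or 3 (adjusted p = 0.112 and 0.111).

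Other immediate early genes also changed in both directions. Of 41 tested among 45 in the table, 11 rose, 12 fell and 18 did not pass, beside 11.2% of all genes rising and 19% falling, with a median log2 change of -0.07. RHOB, a small GTPase, had 180 ± 4.73 TPM in siRRN3 and 43.4 ± 3.37 TPM in control libraries (log2 change 2.03). BTG2, an antiproliferative p53 target, had a log2 change of 1.98. CCN1 and CCN2, matrix proteins induced through SRF and YAP, rose with log2 changes of 1.29 and 1.002. On the falling side, ODC1, the first enzyme of polyamine synthesis, had 66.3 ± 7.66 TPM in siRRN3 and 248 ± 19.3 TPM in control libraries (log2 change -1.89). NR4A1, an orphan nuclear receptor, fell to 7.51 ± 2.22 TPM in siRRN3 libraries, against 23.6 ± 1.28 TPM in control libraries. The kinase gene PIM1 and ID3, an inhibitor of helix-loop-helix factors, fell with log2 changes of -1.48 and -0.94. The EGR1 relatives EGR2, EGR3 and EGR4 and the NR4A1 relative NR4A3 were below a mean of 1 TPM and were not tested.

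The next list holds kinases and factors that act upstream of these genes. Of 31 tested among 33, 2 rose, 1 fell and 28 did not pass, beside 30.3% of all genes that passed, with a median log2 change of 0.01. With the GC trend removed, 9 genes of this list rose and 2 fell. MAP2K3, a kinase that activates p38, had 154 ± 5.73 TPM in siRRN3 and 103 ± 9.01 TPM in control libraries (adjusted p = 0.00186). ELK3 and ELK1, ETS factors that join SRF at serum response elements, moved apart. ELK3 rose to 19.4 ± 6.10 TPM in siRRN3 libraries, against 7.19 ± 0.774 TPM in control libraries, and ELK1 fell to 30.0 ± 1.46 TPM in siRRN3 libraries, against 40.6 ± 5.20 TPM in control libraries. The ELK1 call (adjusted p = 0.0242) ended after median-of-ratios scaling (adjusted p = 0.0768), without siRRN3 replicate 2 or 3 (adjusted p = 0.0876 and 0.0717) and without control replicate 2 (adjusted p = 0.0527).

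Of 13 tested genes for the turnover or restraint of JUN and FOS proteins, 0 rose, 3 fell and 10 did not pass the limma test, beside 11.2% of all genes rising and 19% falling. None had an unadjusted p under 0.05 upward, and 3 did downward. Among those that fell, MEN1, whose product menin binds JUND, had 27.1 ± 0.354 TPM in siRRN3 libraries and 39.02 ± 3.38 TPM in control libraries. The kinase gene GSK3A also fell (log2 change -0.39, adjusted p = 0.0246). The GSK3A call ended after median-of-ratios scaling (adjusted p = 0.0958), with no variance trend fitted (adjusted p = 0.0503) and without siRRN3 replicate 2 or 3 (adjusted p = 0.0925 and 0.0678).

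Of 22 tested AP-1 targets among 34 in the table, 10 rose, 2 fell and 10 did not pass. Of all genes tested, 11.2% rose and 19% fell. The targets had a median log2 change of 0.27. This list was chosen with earlier results of these data known, so its counts describe it and do not compare it with other genes. PLAU, the urokinase plasminogen activator, rose to 109 ± 8.37 TPM in siRRN3 libraries, against 59.1 ± 3.14 TPM in control libraries. ITGB4, an integrin of hemidesmosomes, rose to 249 ± 11.5 TPM in siRRN3 libraries, against 110.4 ± 11.6 TPM in control libraries. CCND1, cyclin D1, rose to 514 ± 94.0 TPM in siRRN3 libraries, against 185 ± 33.7 TPM in control libraries. The 2 that fell were NQO1 and HMOX1, antioxidant enzymes that are also targets of NRF2, with log2 changes of -1.36 and -1.45. Of the 12 targets below a mean of 1 TPM, which include the collagenase gene MMP1, 4 were listed at 0 in every library. The targets have other regulators too, and a link between their changes and those of the members was not tested.

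**Figure D5:**
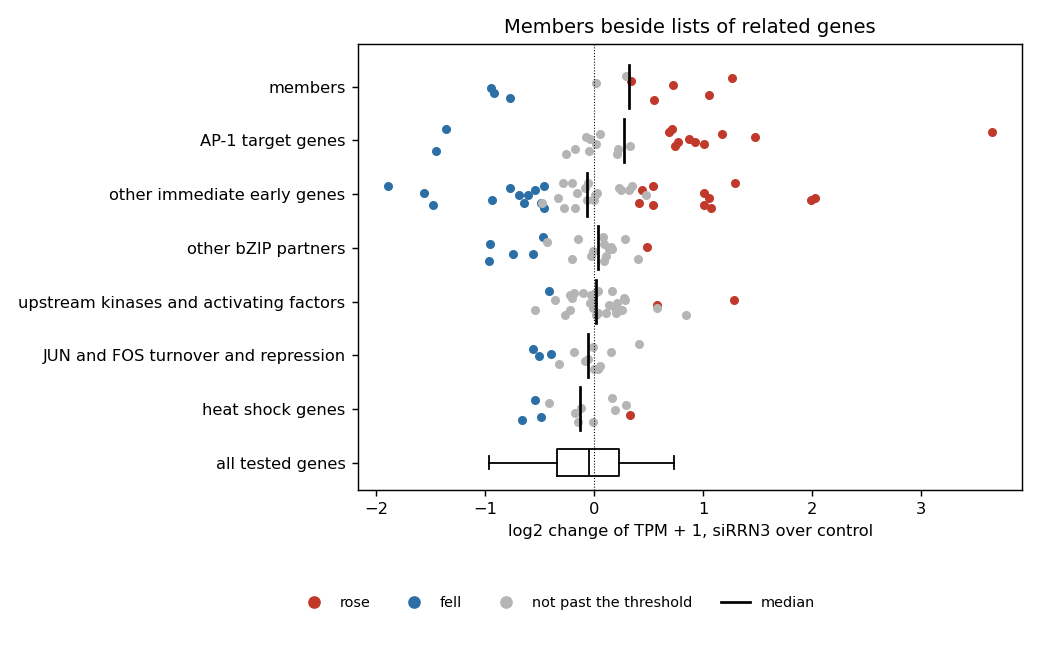
Log2 change of TPM + 1, siRRN3 over control, of each tested gene of the members and of 6 lists, coloured by whether it rose, fell or did not pass the test, with the list median as a black line. The box for all tested genes gives the quartiles and median, with whiskers at the percentiles 5 and 95. The medians lie between -0.13 for heat shock genes and 0.32 for the members.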

How the data were processed

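RNA was taken from 3 siRRN3 and 3 control cultures of HCT116 cells. Per the labels, libraries came from poly(A) RNA, with ribosomal RNA depleted by Ribo-Zero. The authors deposited 1 TPM value per gene symbol and library. STAR, Salmon and GRCh38 appear in the submitters' processing notes, with no roles. The versions, annotation and filters were not given in the sources used here. TPM keeps no depth, so no counting interval was computed.

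In R 4.3.3, limma 3.58.1 was fitted to log2(TPM + 1) of the 12157 genes whose mean TPM reached 1, with group as the only term and a variance trend. Fold changes on this scale understate those of low genes. Benjamini-Hochberg adjustment covered all genes tested, with a threshold of 0.05. "Rose" and "fell" mean past this threshold. Ratios are of mean TPM. The fit was tested on simulated data.

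Members and lists were chosen with earlier results of these data known. Named genes are the members, RRN3, up to 4 members per list and direction with the smallest adjusted p, and the 2 genes of nearest profile to JUN, FOSL1, ATF3 and MAFF; some of these are not reported here. Positions and GC content came from GENCODE release 29, matched by symbol, with GC values for 12144 tested genes (99.9%). Promoters came from the RefSeq table. Bases before the start that a GENCODE model of the gene covers were shown only as 30 bases around a motif. Alternatives were other pseudocounts, filters and scalings, no variance trend, robust moderation, removal of the GC trend by loess (span 0.3), a replicate block and leaving out libraries.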

Additional observations from a re-analysis of the deposited data

How the results depend on the processing

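JUN, JUNB, JUND, FOS, FOSL1, FOSL2, ATF3 and RRN3 kept their direction and stayed past the threshold under all 19 alternatives, with log2 changes of 1.16 to 1.37 for JUN, -1.01 to -0.75 for JUNB and 0.64 to 0.88 for FOSL1. The number of members that rose was 4 to 6 and the number that fell was 3 throughout. EGR1, which never passed, had a log2 change of -0.12 to 0.18 when 1 library was left out, below 0 without siRRN3 replicate 1 (-0.12), siRRN3 replicate 2 (-0.0016) or control replicate 3 (-0.09) and without both libraries numbered 1 (-0.14). Over all genes, 1367 rose and 2312 fell, and the number that rose was 2055 after median-of-ratios scaling, 2199 after quantile normalization and 2750 with the GC trend removed. Leaving out 1 library gave 785 to 1268 genes that rose and 1445 to 2977 that fell, with both lowest counts without siRRN3 replicate 2. Without control replicate 3, 893 rose. With a replicate block 2295 genes rose and 3251 fell, and no call of a member changed. Deviations of same-numbered libraries from their group means correlated across genes at 0.42, 0.0954 and 0.159 for replicates 1, 2 and 3. Replicates 2 and 3 of siRRN3 correlated best with control replicates 3 and 2 (0.11 and 0.19), by small margins. These values do not settle whether the numbers pair the cultures, and the main fit left pairing out. Of 623 values of the 33 genes the naming rule took from lists, under the alternatives, 602 kept direction and side of the threshold, 21 no longer passed and 0 reversed.
Over the alternatives 0 to 3 genes of the other zipper list rose and 3 to 6 fell, and 2 to 9 upstream genes rose and 0 to 3 fell. Of other immediate early genes 8 to 15 rose and 8 to 14 fell, and of AP-1 targets 10 to 12 rose and 2 to 3 fell. The depth of the libraries is unknown, which limits what can be said of FOSB and of genes near 1 TPM.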

Other observations

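Heat shock genes, which respond to handling and to damaged protein, were read beside the members. Of 12 tested, 1 rose, 3 fell and 8 did not pass, close to the 30.3% of all genes that passed, with a median log2 change of -0.13. HSPB1, a small heat shock protein, fell to 556 ± 27.0 TPM in siRRN3 libraries, against 884 ± 61.8 TPM in control libraries. HSPA1B fell to 205 ± 9.71 TPM in siRRN3 libraries, against 298 ± 21.9 TPM in control libraries. HSPA1A, at 3.39 ± 0.272 TPM in siRRN3 and 5.15 ± 0.137 TPM in control libraries, is nearly identical in sequence to HSPA1B, so reads can be split between them. DNAJB1, a partner of HSP70, rose to 213 ± 10.3 TPM in siRRN3 libraries, against 169 ± 10.4 TPM in control libraries. The HSPA1A call ended with low genes kept in (adjusted p = 0.063) and when any library other than siRRN3 replicate 1 was left out (adjusted p = 0.0675 to 0.121), and the DNAJB1 call without siRRN3 replicate 2 (adjusted p = 0.0604).

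The gene whose profile over the 6 libraries was nearest to that of JUN was CCN1, with a root mean square difference of 0.03 on the log2(TPM + 1) scale after centring on the control mean. CCN1 had 41.8 ± 5.21 TPM in siRRN3 and 16.5 ± 1.62 TPM in control libraries. The next was AJUBA, a LIM domain protein, with 46.1 ± 7.82 TPM in siRRN3 and 19.3 ± 2.26 TPM in control libraries. The nearest to FOSL1 were VPS37B and PEX6, to ATF3 CCNDBP1 and TWNK, and to MAFF CBX6 and PVR, with differences of 0.02 to 0.04. These genes were picked as the nearest of 12157 tested over 6 libraries, how near the nearest is for other patterns was not examined, and they describe likeness of values only.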
